A study of Manis javanica with 3 samples.

Results

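The genes described here serve antigen presentation and the interferon response in the Malayan pangolin (*Manis javanica*), a scaly mammal that feeds on ants and termites. They were chosen by annotation, with earlier results of these data known. The 36 listed symbols run from B2M to the interferon receptors. A gene was taken if its best protein match is a histocompatibility antigen or its Swiss-Prot entry carries 1 of these symbols. This gave 58 genes, of which 57 have values among the 24220 genes of the expression tables, 15 found by product name and 42 by symbol. TAPBP, the gene of the peptide loading factor tapasin, was annotated but has no expression row. RNA came from 3 tissues, small intestine, salivary glands and liver, all of 1 adult female, a wild animal that died while being rescued and was dissected directly afterwards. The cause of death is not given in the sources used here, and all 3 libraries share this animal and its death. With 1 library per tissue the differences have no replicate check, so no p-value is given and the intervals cover counting error only.

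Class I molecules show peptides from inside the cell to cytotoxic T cells. They consist of a heavy chain and beta-2-microglobulin, and their peptides are cut by the proteasome and carried into the endoplasmic reticulum by the TAP transporter. Class II molecules show peptides from engulfed material to helper T cells and are made mainly by macrophages, dendritic cells and B cells, where the invariant chain CD74 guards the empty groove and DM and DO control its loading. Type I interferons and interferon gamma bind receptors on nearly every cell. Through STAT and IRF factors they switch on antiviral genes and raise both presentation routes. In the liver, resident macrophages and sinus endothelium add to the presenting cells.

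The counts summed to between 8318686 (salivary glands) and 14568778 (liver) per library, and a count of 0 allows up to 0.295, 0.361 and 0.206 CPM (counts scaled to equal library size) in small intestine, salivary glands and liver, in that order. The liver library carried its hepatocyte markers at a summed FPKM of 24131, led by the fibrinogen chains FGB and FGA, against 109 and 121 elsewhere. Of 8 salivary gland symbols 3 gave a gene. The salivary gland library led in their summed FPKM, at 122, through AQP5 and PIP. The third, LPO, was near 0 in every library, on 6, 6 and 2 counts in small intestine, salivary glands and liver. The library labelled small intestine held gastric markers at a summed FPKM of 117889, led by the pepsinogens PGA and PGC, and 3 of the 7 enterocyte genes were listed at 0 in it. Only 1 of the 7, VIL1, passed an FPKM of 1 there, at 24.0, with 25.7 in salivary glands and 21.2 in liver. Summed enterocyte FPKM was 24.2 in liver, 26.5 in salivary glands and 24.3 in the library labelled small intestine. The comparison of liver with salivary glands takes no gene counts from that library, though its scaling factors were computed over all 3 libraries. FPKM (fragments divided by transcript length and by all fragments mapped) is per length and serves here to compare genes within a library. Ratios between libraries are ratios of counts after TMM scaling, which sets the bulk of genes to equal levels.

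Classes were set by product name after values were seen. The 57 genes held 4 class I heavy chains, 10 class I accessory genes and 10 class II genes. A further 9 were receptor and signalling genes, 17 were interferon-induced genes and 7 carried another product. An FPKM above 1 was reached by 49 genes in small intestine, 40 in salivary glands and 50 in liver. Among all genes the shares were 59.4, 56.3 and 57.0%, and 54 of the 57 passed in at least 1 library. The largest share of counts fell to the interferon-induced genes in the liver library, at 0.344% (exact binomial 95% interval 0.341 to 0.347%). The same genes took 0.0418% (0.0406 to 0.0431%) of the small intestine library and 0.0155% (0.0146 to 0.0164%) of the salivary gland library. Class II genes took 0.00542, 0.00689 and 0.0527% in small intestine, salivary glands and liver. Class I heavy chains took 0.0348, 0.0513 and 0.116%.

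**Figure D1:**
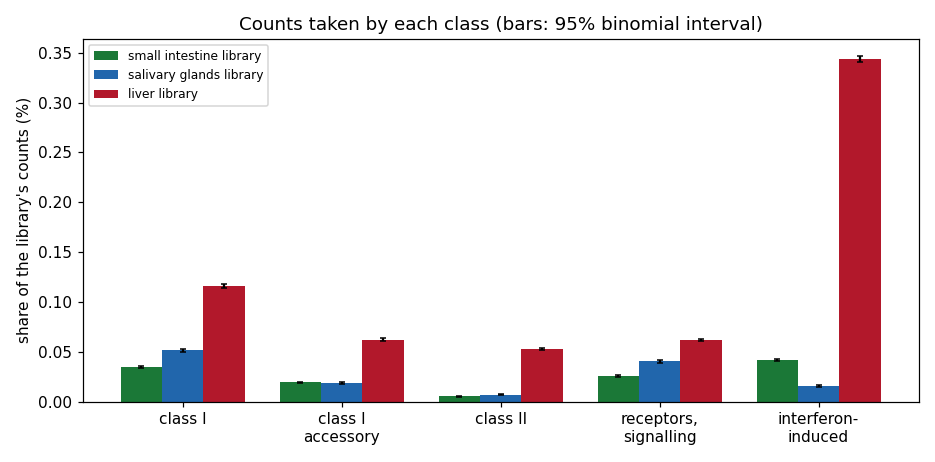
Share of each library's counts (%) that fell on each class of genes, with a bar for each library and exact binomial 95% intervals (counting error only). The interferon-induced genes stand at 0.344% in the liver library and at 0.0418 and 0.0155% in the small intestine and salivary gland libraries.

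A gene was called higher or lower where the ratio of its scaled counts was at least 2-fold and the 95% counting interval of that ratio left out 1, among genes with at least 10 counts in either library. Of 53 genes with enough counts, 35 were called higher in liver than in small intestine and 2 lower, while 22.7% of all genes tested were called higher and 23.9% lower. Against salivary glands, 37 of 53 were called higher in liver and 4 lower, with 23.9% of all genes called higher and 22.3% lower. Between salivary glands and small intestine, 3 of 48 were called higher in salivary glands and 16 lower, where 15.8% of all genes were called higher and 19.8% lower. The median log2 ratio of the genes was 2.03 for liver over small intestine, 2.15 for liver over salivary glands and -0.16 for salivary glands over small intestine. Over all genes tested the medians were 0.08, 0.07 and 0.02. Scaling by library size alone raised the log2 ratios of liver and of salivary glands to small intestine by 0.24 and 0.46, and it lowered those of liver to salivary glands by 0.22. With it, 12 genes rather than 3 were called higher in salivary glands than in small intestine. The share of all genes called under that scaling was not computed, so the 12 have no background beside them. A gene with under 10 counts in 1 library passed the filter only through the other, which favours a call toward that other library. In bulk tissue, a larger number of cells of a type and more RNA per cell cannot be told apart.

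**Figure D2:**
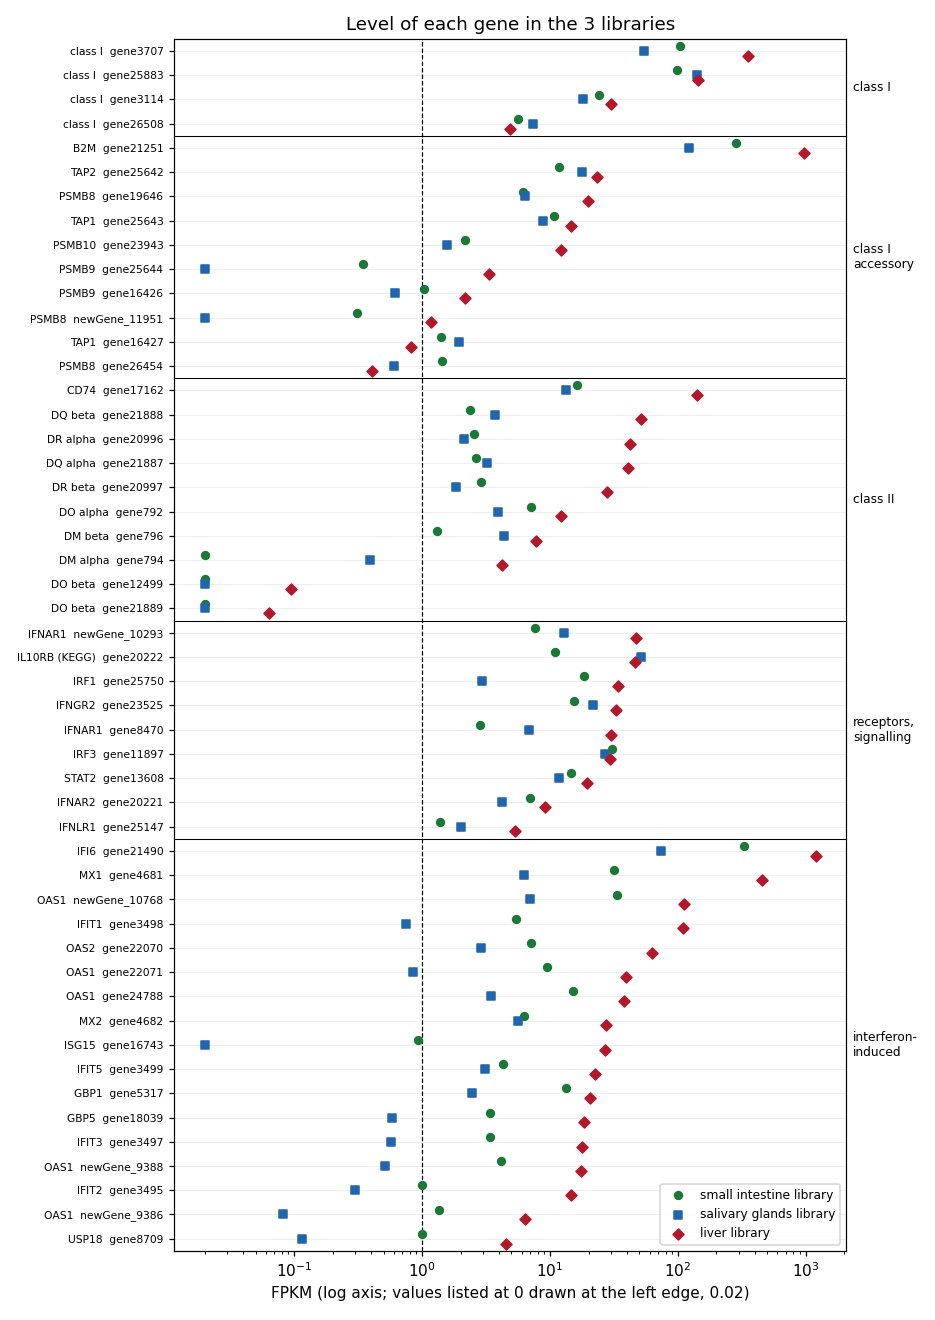
FPKM (log axis) of 50 genes in the small intestine (circles), salivary gland (squares) and liver (diamonds) libraries, grouped by class and ordered by the liver value, with values listed at 0 at the left edge and a dashed line at FPKM 1. All 17 interferon-induced genes have their highest point in the liver library and their lowest in the salivary gland library, while IRF3 has its 3 points between 26.8 and 30.3.

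The 4 class I heavy chain genes were unequal in level and between tissues, gene25883 and gene3707 being the most abundant in every library. Gene25883, on scaffold NW_016583632.1:20939-24557, had an FPKM of 98.1 in small intestine, 141 in salivary glands and 142 in liver. Gene3707, on NW_016529316.1:63462-66949, had 105, 54.2 and 354. Both were matched to class I antigens of the A series by best protein match alone, as was gene26508. Whether they are classical heavy chains, which present to cytotoxic T cells, was not tested. Of the 4 heavy chain genes, gene3707 alone was called with TMM scaling. In liver it stood at 4.08 times (95% counting interval 3.87 to 4.30) the small intestine level and 6.99 times (6.56 to 7.45) the salivary gland level. Gene25883 was 1.79 times (1.69 to 1.90) and 1.09 times (1.04 to 1.14) as high in the same comparisons. By library size alone gene25883 was also called higher in liver than in small intestine, at a log2 ratio of 1.08. Its CPM was 143 in small intestine and 322 in salivary glands. The balance of the pair, which does not depend on how libraries are scaled, thus differed between tissues: gene3707 stood at 1.07 times gene25883 in small intestine, 0.385 times in salivary glands and 2.48 times in liver. The genes are alike in product, so reads of a shared stretch could have been split between them. Gene3114, matched to a mouse Q10-type class I chain, had an FPKM of 24.2, 18.1 and 30.0. Gene26508, at the end of a short scaffold, had 5.57, 7.38 and 4.86, and was called in no comparison. Summed over the 4 genes, liver counts were 2.82 times (2.72 to 2.93) those of small intestine and 2.63 times (2.54 to 2.72) those of salivary glands, and salivary glands stood at 1.07 times (1.03 to 1.12) small intestine.

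B2M encodes the light chain that every class I molecule needs. Its FPKM was 286 in small intestine, 122 in salivary glands and 959.5 in liver, the second highest liver value among the 57 genes. It was called higher in liver than in small intestine, at 2.96 times (2.78 to 3.14), and than in salivary glands, at 6.90 times (6.36 to 7.502). It was also called lower in salivary glands than in small intestine, at 0.428 times (0.389 to 0.472), a call that library size scaling ended, at a log2 ratio of -0.77. Set against the summed heavy chains of the same library, B2M stood at an FPKM ratio of 1.23 in small intestine, 0.553 in salivary glands and 1.81 in liver. The summed heavy chains had an FPKM of 220.3 in salivary glands and 232 in small intestine, so those libraries differed in B2M more than in heavy chains.

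TAP1 and TAP2 form the transporter that pumps peptides into the endoplasmic reticulum. The longer TAP1 gene (gene25643) had an FPKM of 10.7, 8.89 and 14.5 in small intestine, salivary glands and liver, and none of its 3 ratios reached 2-fold. TAP2 (gene25642, which carries the symbol TAP1 but is named antigen peptide transporter 2) had 11.7, 17.9 and 23.5, and was called only in liver over small intestine, at 2.46 times (2.15 to 2.82). A shorter TAP1 gene, gene16427, was the single accessory gene called lower in liver than in salivary glands, at 0.470 times (0.237 to 0.913) and on counts of 15, 24 and 17. Both TAP1 genes summed gave no called comparison. The 4 genes TAP2, PSMB8, TAP1 and PSMB9 lay next to each other on NW_016577896.1 between bases 8792 and 36280, and a further pair of PSMB9 and TAP1 lay on NW_016540462.1.

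PSMB8, PSMB9 and PSMB10 replace PSMB5, PSMB6 and PSMB7 in the immunoproteasome, the form of the proteasome that interferon gamma is known to induce. Summed over its 3 genes, PSMB8 had an FPKM of 7.90, 6.98 and 21.2 in small intestine, salivary glands and liver, of which gene19646 gave 6.14, 6.38 and 19.7. PSMB9, summed over 2 genes, had 1.38, 0.616 and 5.48 on 6, 4 and 38 counts. PSMB10 had 2.16, 1.57 and 12.3, and was called higher in liver than in small intestine, at 6.36 times (4.399 to 9.52), and than in salivary glands, at 7.65 times (5.23 to 11.6). Within a library, PSMB10 stood at 2.39% of PSMB7 in small intestine (counting interval 1.61 to 3.43%), 2.65% in salivary glands (1.76 to 3.86%) and 11.4% in liver (10.1 to 12.9%). PSMB9 stood at 2.23% of PSMB6 (0.812 to 4.90%), 1.12% (0.305 to 2.90%) and 7.20% (5.06 to 9.96%). For both subunits the liver interval lay above the other two, for PSMB9 on FPKM only. By counts PSMB9 stood at 1.64% (0.599 to 3.61%), 0.976% (0.265 to 2.52%) and 4.31% (3.03 to 5.96%), and the small intestine and liver intervals overlapped. PSMB8 was not higher in liver on this scale, at 34.7% of PSMB5 in small intestine (25.8 to 45.8%), 24.1% in salivary glands (18.3 to 31.2%) and 22.4% in liver (19.8 to 25.2%), where PSMB5 itself was 3.47 times its small intestine level. The order of the PSMB8 values rests on FPKM, since by counts the ratios were 8.01, 6.92 and 7.38%. Every immunoproteasome subunit was below its constitutive partner in FPKM in all 3 libraries.

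**Figure D3:**
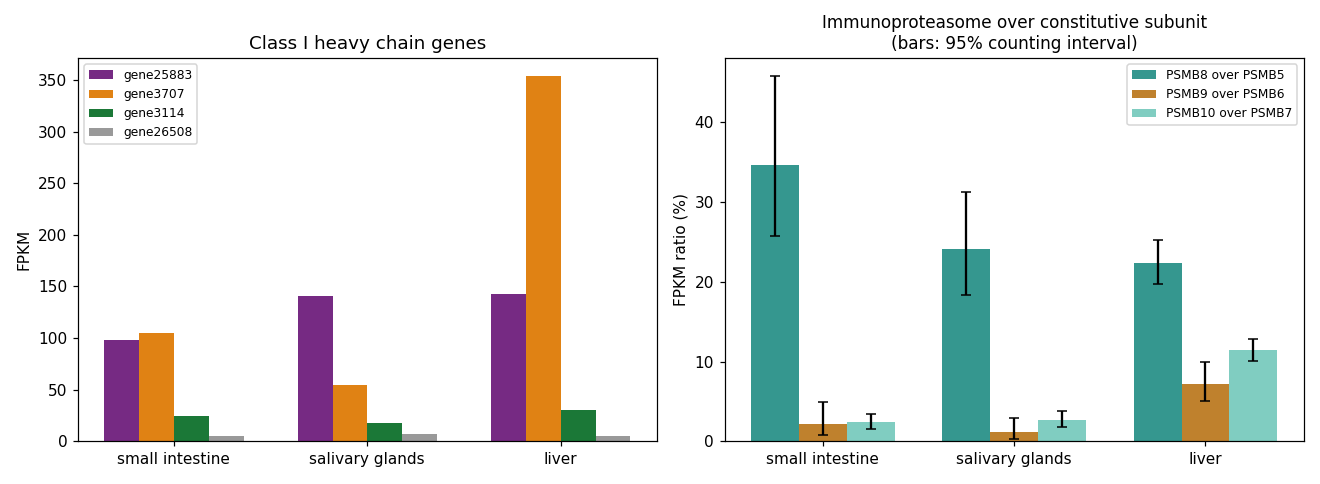
Left, FPKM of the 4 class I heavy chain genes in each library. Right, FPKM of each immunoproteasome subunit as a percentage of the constitutive subunit it replaces, with 95% counting intervals. Gene3707 is the tallest bar in liver (354) and gene25883 in salivary glands (141), and PSMB10 over PSMB7 is 11.4% in liver against 2.39 and 2.65%.

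From a list of 8 symbols for chaperones, trimming enzymes and proteasome activators, 6 genes were found, and of 5 with enough counts 3 were called higher in liver than in small intestine and 4 than in salivary glands, with none lower, beside 22.7 and 23.9% of all genes called higher. CALR, the calreticulin that holds new heavy chains, had an FPKM of 83.7 in small intestine, 90.8 in salivary glands and 800.0 in liver. PDIA3, its partner in the peptide loading complex, had 67.0, 67.1 and 289.9. Both proteins also help to fold many secreted proteins.

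Most class II genes were higher in the liver library than in both others, and their summed counts had larger ratios than the summed class I heavy chains. The DR alpha gene (gene20996) had an FPKM of 2.56 in small intestine, 2.12 in salivary glands and 42.5 in liver, and DR beta (gene20997) had 2.88, 1.84 and 27.98. DQ alpha (gene21887) had 2.66, 3.21 and 41.0, and DQ beta (gene21888) had 2.36, 3.72 and 51.2. These 4 genes encode the DR and DQ molecules that show peptides at the cell surface. Their liver over small intestine ratios ran from 11.2 (7.88 to 16.6) for DR beta to 25.6 (17.4 to 39.3) for DQ beta, and their liver over salivary gland ratios from 11.99 (8.61 to 17.2) for DQ alpha to 18.6 (12.6 to 28.7) for DR alpha. None was called between salivary glands and small intestine. DR alpha and DR beta lay on 1 scaffold (NW_016548761.1:17681-43267), as did DQ alpha, DQ beta and 1 DO beta gene (NW_016551390.1:56502-119755).

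CD74, the invariant chain, was the most abundant class II gene in each library, with an FPKM of 16.2, 13.4 and 140.5 in small intestine, salivary glands and liver. Its ratio was 10.3 (8.98 to 11.9) for liver over small intestine and 10.6 (9.28 to 12.1) for liver over salivary glands, and 0.973 (0.805 to 1.18) between the other two. The gene (gene17162) is named a class II gamma chain by its product, but its Swiss-Prot symbol is SPOCK3, so a search by symbol alone would have missed it.

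The genes that edit peptide loading varied more. DM alpha (gene794) had 0 counts in small intestine, 5 in salivary glands and 66 in liver. With the 0 set to 3 counts it was 12.996 times as high in liver as in small intestine, with a lower counting limit of 10.3. Against salivary glands it was 8.77 times (3.57 to 27.9) as high in liver. DM beta (gene796) had an FPKM of 1.31, 4.34 and 7.82, and was the single class II gene called higher in salivary glands than in small intestine, at 2.71 times (1.63 to 4.67), while its liver over salivary gland ratio of 1.85 (1.38 to 2.498) was not called. DO alpha (gene792) had 7.07, 3.93 and 12.1. It was 1.66 times (1.42 to 1.96) as high in liver as in small intestine, the smallest such ratio of the 8 class II genes with enough counts, and 2.97 times (2.45 to 3.61) as high as in salivary glands. The pair of DO beta genes, whose product must join DO alpha to form DO, had 0 counts in small intestine and in salivary glands and 3 and 1 in liver. DO alpha was thus read at an FPKM of 3.93 or more in all 3 libraries while both annotated partners were at or near 0. DO alpha, DM alpha and DM beta lay together on NW_016527671.1 between bases 216128 and 277563. Taken as a share of the summed FPKM of all class II chains, DM and DO made up 44.5% in small intestine, 44.3% in salivary glands and 13.01% in liver.

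Of the 8 class II genes with enough counts, 7 were called higher in liver in each comparison, against backgrounds of 22.7 and 23.9%. Summed, class II counts in liver were 8.24 times (7.55 to 8.996) those of small intestine and 8.90 times (8.18 to 9.71) those of salivary glands, while salivary glands and small intestine lay within counting error of each other at 0.925 times (0.821 to 1.04). Within a library, the summed FPKM of class I heavy chains was 22.2 times that of DR and DQ in small intestine, 20.2 times in salivary glands and 3.26 times in liver. A list of 11 symbols for lysosomal proteases and for transcription factors of class II genes gave 16 genes. Of 12 with enough counts, 5 were called higher and 1 lower in liver in each comparison. CTSL, a lysosomal protease, had an FPKM of 17.9, 21.2 and 83.1. NFYC, a subunit of the promoter factor NF-Y, had 37.5, 24.6 and 18.3 and was the gene called lower against small intestine, while a CREB1 gene (gene8071) was the one called lower against salivary glands.

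Most leukocyte marker lists summed higher in the liver library as well. Pan-leukocyte markers (5 genes found of 7 symbols, ITGB2 and TYROBP highest) had a summed FPKM of 4.38 in small intestine, 3.96 in salivary glands and 52.8 in liver. All 5 were called higher in liver in both comparisons, where 22.7 and 23.9% of all genes tested were called higher. Macrophage markers (7 genes, led by the complement chains C1QC, which carries the symbol C1QA, and C1QB) had 49.1, 39.3 and 739.8, with 6 of 7 called higher against small intestine and 7 of 7 against salivary glands. Their summed counts were 16.4 and 17.6 times as high in liver, beside 8.24 and 8.90 times for class II genes. T and NK cell markers (9 genes, CD3E and NKG7 highest) had 1.80, 0.660 and 20.2, with 4 of 9 at 0 counts in small intestine, 5 in salivary glands and none in liver. The 7 with enough counts were called higher in liver in both comparisons. Between salivary glands and small intestine 0 had enough counts. All 7 thus passed the count filter through liver alone, which favours a call of higher in liver. B cell markers stayed low, at 0.733, 1.68 and 3.42 over 5 genes, of which MS4A1 had 0 counts in both small intestine and salivary glands. With enough counts, 2 of 2 were called higher in liver than in small intestine, each passing the count filter through liver alone. Against salivary glands, 2 of 3 were called higher in liver and 1 lower, beside 23.9 and 22.3% of all genes. The 2 dendritic cell genes found had 1.03, 0.0459 and 0.503. The 1 with enough counts was called higher in liver only against salivary glands. Plasma cell markers (4 genes, IGJ and DERL3 highest) had 9.73, 22.1 and 54.6, and all 3 with enough counts were called higher in liver in both comparisons. The part of leukocyte content in the class II differences was not tested.

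**Figure D4:**
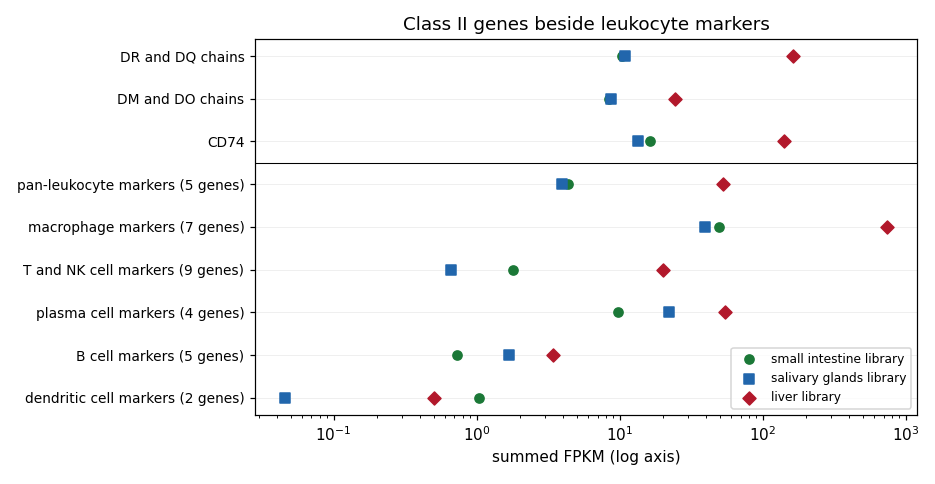
Summed FPKM (log axis) of class II gene groups, above the line, and of leukocyte marker lists, below it, with 1 point per library. DR and DQ go from 10.5 and 10.9 to 163, CD74 from 16.2 and 13.4 to 140.5 and macrophage markers from 49.1 and 39.3 to 739.8, while the salivary gland and small intestine points of DR and DQ and of DM and DO nearly coincide.

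The receptors of type I interferon were both expressed everywhere, with unequal tissue patterns. IFNAR1 was read on a new gene (newGene_10293) with an FPKM of 7.69 in small intestine, 12.9 in salivary glands and 46.8 in liver, and on gene8470 with 2.85, 6.85 and 30.2. Summed, IFNAR1 was 5.71 times (5.03 to 6.50) as high in liver as in small intestine and 3.14 times (2.86 to 3.45) as high as in salivary glands. IFNAR2, the other chain of the same receptor, had 6.94, 4.18 and 9.15 and was called in no comparison, with a liver over small intestine ratio of 1.21 (1.05 to 1.41). IFNLR1, the specific chain of the lambda interferon receptor, had 1.37, 2.01 and 5.32, and was called higher in liver than in small intestine, at 4.50 times (3.41 to 6.04), and than in salivary glands, at 2.60 times (2.10 to 3.23). Gene20222, which lies beside IFNAR2 and is named IL10RB, a chain shared by the lambda interferon and interleukin 10 receptors, by its KEGG entry alone, had 11.03, 51.7 and 46.3. It was 5.08 times (4.19 to 6.20) as high in salivary glands as in small intestine, the largest ratio in that direction among the 48 genes tested. The IFNGR2-like gene23525, a chain of the interferon gamma receptor, had 15.3, 21.6 and 32.7 and was not called.

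Of the transcription factors, IRF1 and IRF3 behaved differently. IRF1, itself an interferon gamma target and an activator of class I genes, had an FPKM of 18.4 in small intestine, 2.92 in salivary glands and 34.0 in liver. It was called in every comparison, at 2.07 times (1.85 to 2.33) for liver over small intestine (not called by deposited FPKM, at a log2 ratio of 0.88), 0.181 times (0.140 to 0.231) for salivary glands over small intestine and 11.5 times (9.10 to 14.6) for liver over salivary glands. IRF3, the factor that is activated by phosphorylation after viral sensing, had 30.3, 26.8 and 29.4, and its 3 ratios lay between 0.947 and 1.04. STAT2, the partner of IRF9 in the type I interferon signal, had 14.6, 11.8 and 19.5 and was not called, with a liver over salivary gland ratio of 1.55 (1.41 to 1.71). Over the 9 receptor and signalling genes, 5 were called higher in liver than in small intestine and 4 than in salivary glands, and none lower, beside 22.7 and 23.9% of all genes called higher. From a further list of 12 symbols for kinases, STAT factors and inhibitors, 8 genes were found. Of these, 3 were called higher in liver than in small intestine and 5 than in salivary glands, beside the same shares of all genes. STAT3 (85.4, 65.5 and 211) and the inhibitor SOCS3 (106, 59.6 and 143) had the highest FPKM, and SOCS3 was not called in liver over small intestine.

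The interferon-induced genes were lowest in salivary glands, intermediate in small intestine and highest in liver. This order of FPKM held for all 17, though FPKM was not on an equal footing between libraries. At the median gene, count and FPKM implied 0.767, 1.10 and 0.858 times the listed length in small intestine, salivary glands and liver. FPKM thus ran high for its counts in small intestine and low in salivary glands. In CPM, MX2 was higher in salivary glands (19.0) than in small intestine (14.3), and IFIT5 stood at 12.5 in each. In liver over small intestine 16 of 17 were called higher, in liver over salivary glands 17 of 17, and in salivary glands over small intestine 14 of 16 with enough counts were called lower, where the background was 22.7, 23.9 and 19.8%. The median ratio was 4.74 for liver over small intestine, 25.1 for liver over salivary glands and 0.200 for salivary glands over small intestine. Median FPKM was 5.40 in small intestine, 0.857 in salivary glands and 26.9 in liver, and 8 of the 17 passed an FPKM of 1 in salivary glands against 15 and 17 in the other libraries.

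**Figure D5:**
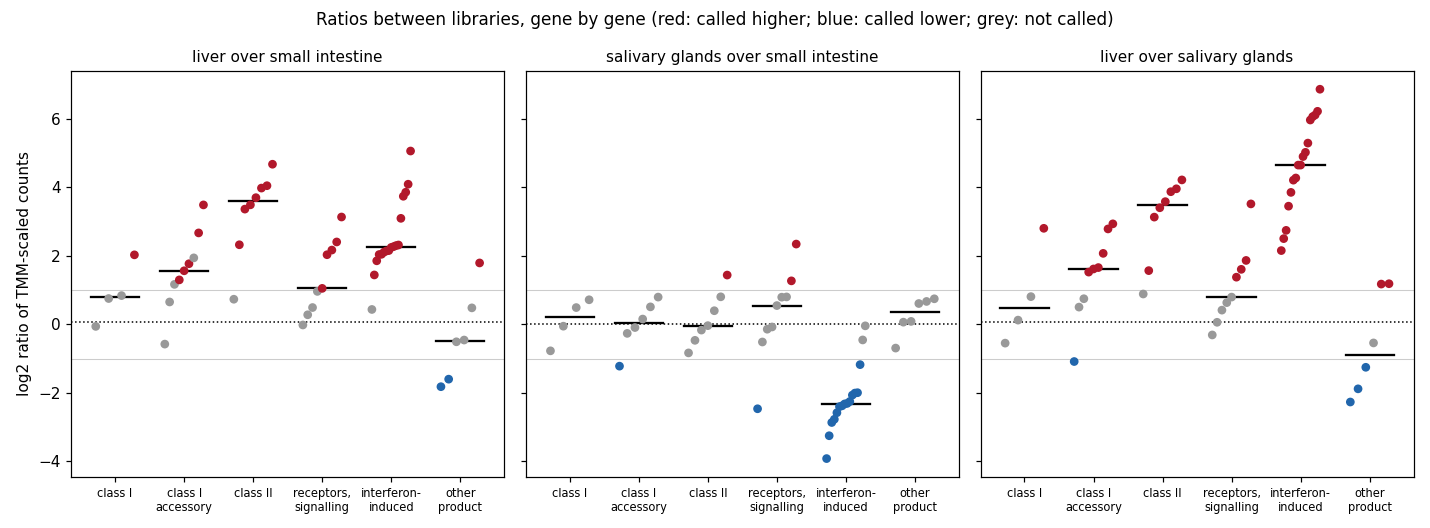
Log2 ratio of TMM-scaled counts for each gene with at least 10 counts in either library, by class, in the 3 comparisons, with class medians as short lines, the median of all genes as a dotted line and grey lines at 2-fold. The interferon-induced medians are 2.25, -2.32 and 4.65 from left to right, whereas the class II medians are 3.60, -0.04 and 3.49.

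MX1 and IFI6 held a large share of these counts. MX1, a GTPase that traps viral nucleocapsids, had an FPKM of 31.9 in small intestine, 6.27 in salivary glands and 457 in liver, on counts of 1022, 229 and 23132. Its ratios were 13.4 (12.6 to 14.2) for liver over small intestine and 67.1 (58.9 to 76.8) for liver over salivary glands. The listed length of its gene model is 19091 bases, whereas its count and FPKM in liver correspond to 3477 bases, so its FPKM rests on a shorter transcript than the listed one. IFI6, a small hydrophobic protein made after type I interferon, had 330.1, 74.1 and 1191, the highest FPKM of the 57 genes in small intestine and in liver. MX1 and IFI6 together made up 67.7% of the counts of the 17 genes in liver, 57.9% in small intestine and 47.7% in salivary glands. MX2, which lies beside MX1 on NW_016529903.1, had 6.25, 5.66 and 27.4, and it was 1 of the few induced genes with like levels in salivary glands and small intestine, at a ratio of 0.969 (0.769 to 1.22). By library size alone MX2 (gene4682) turned higher in salivary glands, at a log2 ratio of 0.41, and the other 15 induced genes with enough counts did not exceed 0.00.

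The IFIT genes, whose products bind foreign RNA ends, lay in a row on NW_016529218.1 between bases 5046 and 74895 in the order IFIT2, IFIT3, IFIT1 and IFIT5. IFIT1 (gene3498) had an FPKM of 5.40 in small intestine, 0.746 in salivary glands and 109.8 in liver, and its liver over salivary gland ratio of 117 (77.1 to 187) was the largest of the 57 genes among those read in both libraries. IFIT2 (gene3495, whose symbol is IFIT3) had 1.001, 0.298 and 14.7, and IFIT3 (gene3497) had 3.43, 0.575 and 17.7. IFIT5 (gene3499, whose symbol is IFIT1) had 4.26, 3.12 and 22.3. Neighbours in the row thus differed in size of ratio, from 4.13 (3.43 to 5.01) for IFIT5 to 17.1 (14.4 to 20.4) for IFIT1 in liver over small intestine. In salivary glands over small intestine IFIT5 stood at 0.728 (0.557 to 0.951), not called, while IFIT1, IFIT2 and IFIT3 stood between 0.146 and 0.209 and were called lower.

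The oligoadenylate synthases make the second messenger that starts RNA decay by RNase L. OAS2 (gene22070) had an FPKM of 7.14, 2.90 and 62.3 in small intestine, salivary glands and liver, with a liver over small intestine ratio of 8.55 (7.60 to 9.66) and a liver over salivary gland ratio of 19.4 (16.4 to 23.0). Its lower call in salivary glands than in small intestine, at 0.442 times (0.360 to 0.540), was lost with library size scaling, at a log2 ratio of -0.72. OAS1-like products were named on 5 genes, 3 of them beside OAS2 on NW_016552138.1. The highest, newGene_10768, had 33.5, 6.99 and 112, gene24788 had 15.2, 3.47 and 37.9, and gene22071 had 9.53, 0.857 and 39.5. NewGene_9386 and newGene_9388 overlap on opposite strands at bases 108462 to 110488, and since the alignment did not use strand their reads cannot be told apart. They had 1.37, 0.0816 and 6.36, and 4.15, 0.514 and 17.5. Summed over the 5 genes, OAS1 was 3.43 times (3.10 to 3.81) as high in liver as in small intestine, 17.0 times (13.9 to 21.0) as high in liver as in salivary glands and 0.202 times (0.161 to 0.252) as high in salivary glands as in small intestine.

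ISG15, the ubiquitin-like protein that is attached to other proteins after interferon, had counts of 5 in small intestine, 0 in salivary glands and 283 in liver. It was 33.4 times (14.2 to 104) as high in liver as in small intestine. With the 0 set to 3 counts it was 62.7 times as high in liver as in salivary glands, with a lower counting limit of 50.6. USP18, the protease that removes ISG15, had counts of 16, 3 and 135, and was 29.9 times (10.01 to 147) as high in liver as in salivary glands. GBP1 (gene5317), a guanylate-binding protein of the interferon gamma response, had an FPKM of 13.3, 2.44 and 20.6. It was the single induced gene not called in liver over small intestine, at 1.35 times (1.21 to 1.51), and stood at 6.70 times (5.45 to 8.33) in liver over salivary glands. The GBP5-like gene18039 had 3.37, 0.582 and 18.3, and was called higher in liver than in small intestine at 4.82 times (3.92 to 5.99) and than in salivary glands at 25.1 times (16.5 to 40.3).

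A wider list of 39 interferon-induced symbols that shares no gene with those above gave 17 genes, with smaller ratios. Most of the 39 symbols gave no gene, and some sat on several genes, short copies among them. Of 16 with enough counts, 12 were called higher and none lower in liver in each comparison (22.7 and 23.9% of all genes higher), a GBP4-like gene (gene26388, symbol GBP6; 29.1, 13.5 and 88.2) and LGALS3BP (61.9, 13.7 and 46.4) having the highest FPKM. The median log2 ratio was 1.33 for liver over small intestine and 1.42 for liver over salivary glands, beside 2.25 and 4.65 for the 17 induced genes above. In salivary glands over small intestine, 3 of 14 were called higher and 4 lower, near the 15.8 and 19.8% of all genes, and the median was 0.14 beside -2.32. Interferon ligands were hardly read. Of 13 genes named as interferons, 11 had 0 counts in small intestine, 11 in salivary glands and 9 in liver, and the summed counts were 6, 25 and 37. A new gene matched to interferon lambda 1 (newGene_2743) had 0, 1 and 26 counts, and a second lambda gene (gene4301) had 5, 24 and 8.

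Symbols taken from Swiss-Prot sometimes sat on a related gene, and 7 of the 57 genes carried another product. The minor histocompatibility antigen H13 (gene613), a signal peptide peptidase and not a heavy chain, had an FPKM of 34.6, 57.7 and 108 in small intestine, salivary glands and liver. It was called higher in liver in both comparisons, at 3.46 times (3.18 to 3.78) and 2.27 times (2.12 to 2.44), the latter not called by library size (log2 ratio 0.97) or by deposited FPKM (0.90). The other 6 had the symbols TAP1 (transporters ABCB9 and ABCA7), PSMB8 (the thymic subunit PSMB11), OAS1 (SGSM1), USP18 (USP47) and IRF1 (IRF2). ABCB9 was called lower in liver than in small intestine, at 0.329 times (0.217 to 0.494), and SGSM1 at 0.283 times (0.162 to 0.479), and these were the only 2 of the 57 genes called lower there. ABCA7 was called lower in liver than in salivary glands, at 0.419 times (0.364 to 0.481), and IRF2 (gene14652) higher, at 2.26 times (1.43 to 3.68; log2 ratio 0.96 and not called by library size), while USP47 was not called. PSMB11 had 0 counts in all 3 libraries. Of the 4 genes called lower in liver than in salivary glands, 3 were of this kind.

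Of the 36 listed symbols 15 were carried by no gene, and for most of them a gene of that product was found by name, a search made after values had been seen. It gave 12 further genes, of which 9 of 10 with enough counts were called higher in liver than in small intestine and none lower, beside 22.7% of all genes higher. In liver over salivary glands 7 of 11 were called higher and 1 lower (23.9 and 22.3% of all genes), and in salivary glands over small intestine 3 of 11 higher and 3 lower (15.8 and 19.8%). RSAD2 (gene25055), the antiviral enzyme viperin, had an FPKM of 0.552, 0.112 and 32.7 in small intestine, salivary glands and liver, and on 13, 3 and 1144 counts was 52.0 times (30.3 to 97.9) as high in liver as in small intestine and 253 times (86.4 to 1229.9) as high as in salivary glands. CIITA (gene16622, symbol NOD2), the master activator of class II genes, had 0.0248, 0.187 and 0.949 on 2, 10 and 84 counts. It was 5.58 times (2.89 to 12.1) as high in liver as in salivary glands, in the same direction as the class II chains. NLRC5 (gene21001), the matching activator of class I genes, had 1.95, 0.831 and 5.10, with ratios of 3.20 (2.67 to 3.86) and 6.10 (4.85 to 7.76) for liver over small intestine and over salivary glands. IRF7 had 7.38, 7.03 and 28.1, IRF9 had 19.7, 6.63 and 46.5, and IRF8, a factor of macrophages and dendritic cells, had 2.45, 0.823 and 5.29. IFNGR1 had 6.20, 3.07 and 18.3 and IFI35 had 4.04, 11.6 and 17.2. IFI35 was thus lowest in small intestine, unlike the induced genes described above. A second TAP2 gene (gene19647) had 0.529, 1.80 and 1.19, and a further class I gene beside gene3707 (gene3706) had 1.91, 1.49 and 2.52. A pair of new genes matched to IFIT2 had at most 10 counts, both highest in salivary glands. OAS3, IFI44 and GBP2 were named by neither symbol nor product.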

How the data were processed

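Poly(A) RNA of 3 tissues of 1 animal was read as paired ends on Illumina HiSeq. The authors aligned cleaned reads with TopHat2, without strand, to the *M. javanica* genome (scaffolds named NW, build not given in the sources used here) and joined new genes with Cufflinks. The deposited counts are whole numbers of fragments per gene, and the counting tool is not given in the sources used here. The authors made the deposited FPKM, for which RSEM is named. A further deposited score is the count times 1 factor per library, except that for 31.8 to 33.0% of genes with counts it stands for slightly fewer fragments, so counts look rounded up. It was used only for this check.

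TMM factors (edgeR 4.0.16) and size factors (DESeq2 1.42.0) were computed in R 4.3.3, and the rest in Python 3.11.15 with pandas 2.3.3, numpy 2.4.6 and scipy 1.17.1. Calls needed a 2-fold ratio and a Clopper-Pearson 95% interval without 1, computed over all genes, with at least 10 counts in either library and a count of 0 set to 3. This compares libraries, not tissues. On simulated counts, all 200 genes changed 4-fold were called in each comparison, as were 96 to 109 unchanged genes of 16059 to 16936 tested. The changed genes were drawn from those with more than 50 expected counts, under counting error alone. Recovery of genes with fewer counts was not tested. The interval treats fragments as independent, though PCR copies were not told apart.

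Members and lists were chosen with earlier results of these data known. Classes rest on the product name in the NR entry and were set after values were seen. The text names each member, and of other lists the 2 genes with the highest FPKM plus PSMB5, PSMB6 and PSMB7. Left out of the lists were 37 genes with a listed symbol whose product was no protein of that list, whereas a gene named as another protein of the same list was kept. Further genes found by product, LPO, MS4A1 and CREB1 were named after their values were seen. Sequences are not shown. The table of RefSeq genes was not used here.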

Additional observations from a re-analysis of the deposited data

How the results depend on the processing

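Counts of genes called kept within 1.5 times of the values above under DESeq2 size factors, deposited FPKM ratios, no count filter beyond 1 count, copies of 1 product summed and the MA-plot method with q-values, in all 3 comparisons and both directions. A fold of 4 left 0 genes lower in liver than in small intestine, 1 lower in liver than in salivary glands and 1 higher in salivary glands than in small intestine. At least 50 counts left 1 lower in liver than in small intestine, and library size alone made 12 higher in salivary glands than in small intestine. The shares of all genes called under these settings were not computed, so these counts have no background beside them. An FPKM above 5 was reached by 29, 22 and 43 genes in small intestine, salivary glands and liver. As shares of all FPKM, in the same order, class I took 0.0325, 0.0369 and 0.0852%, accessory genes 0.0449, 0.0267 and 0.167%, induced genes 0.0660, 0.0182 and 0.351%, and class II 0.00490 and 0.00552% in the first 2 libraries. Without the 10 genes with most counts, the shares of counts were 0.0614, 0.0667 and 0.138% for class I, 0.00957, 0.00895 and 0.0629% for class II, 0.0340, 0.0243 and 0.0741% for accessory genes and 0.0738, 0.0201 and 0.4098% for induced genes. By counts, PSMB8 stood at 8.01, 6.92 and 7.38% of PSMB5, PSMB10 at 4.95, 5.49 and 25.5% of PSMB7 and PSMB9 in liver at 4.31% of PSMB6. Class II genes summed to 49.0, 55.2 and 525.6 TPM. Across 154 gene ratios, no called ratio changed sign under library size, DESeq2 or FPKM scaling, while 5 calls were lost and 12 made by library size and 3 lost and 3 made by FPKM. No paired analysis was possible because each tissue has 1 library, and no library could be left out within a tissue. Ratios on under 10 counts in both libraries were not read.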
